A study of Mus musculus with 18 samples.

Results

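MHC class II presentation was followed through 8 genes in the retinal RNA of young adult BALB/cJ mice. They were taken by symbol from the 23420 gene symbols of the count tables, and they cover the chains of the class II molecules (H2-Aa, H2-Ab1 and H2-Eb1), the peptide loading factor DM (H2-DMa and H2-DMb1), the invariant chain (Cd74), the class II transactivator (Ciita) and the costimulatory ligand CD86 (Cd86). All 8 were listed in every table. The 9 wild-type mice formed 3 groups of 3, of which the first was naïve, with neither light nor injection. The other two groups were exposed to white light of 15000 lux for 1 h and received daily intraperitoneal injections of vehicle or of TD139 at 15 mg/kg, starting the day before the light, and their retinas were taken 4 days after it. TD139 is a small-molecule inhibitor of the sugar-binding protein galectin-3. No mouse received light without injections or injections without light, so light and injection cannot be told apart when the vehicle group is set against the naïve group. DMSO was the vehicle. Whole retinas were measured, and for every gene below, a change in the number of cells of a type and a change in the RNA per cell cannot be told apart.

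MHC class II molecules are pairs of an alpha and a beta chain that carry peptides from endosomes to the cell surface, where CD4 T cells read them. The invariant chain holds the new pair and fills its groove, cathepsins trim the invariant chain in the endosome, and DM exchanges the remaining fragment for a peptide. Class II genes are switched on by the transactivator CIITA, which binds no DNA itself but docks on factors seated at a shared promoter module of X and Y boxes, and interferon gamma induces it through factors that include IRF1. In the healthy retina class II is sparse, and microglia, perivascular macrophages and rare dendritic cells are its usual carriers. Mice of the BALB/c strain make both class II molecules, I-A (H2-Aa with H2-Ab1) and I-E (H2-Ea with H2-Eb1), and carry the d haplotype of the class II region, whereas the mm10 reference used for counting comes from C57BL/6J with the b haplotype, in which the I-E alpha chain gene is a pseudogene. How the difference in haplotype bears on the counts of single class II chains was not tested.

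On GENCODE M21 (GRCm38), H2-DMa (chr17:34119541-34139101), H2-DMb1 (chr17:34153072-34160230), H2-Ab1 (chr17:34257689-34269419) and H2-Eb1 (chr17:34305867-34316674) lie on the plus strand of the class II region of chromosome 17, and H2-Aa (chr17:34282744-34287823) lies on the minus strand between H2-Ab1 and H2-Eb1. Ciita (chr16:10480059-10528418, plus strand) and Cd86 (chr16:36603869-36666081, minus strand) lie on chromosome 16. Counts were given as a single value per gene. The strand setting of the counting was not stated in the sources used here. H2-DMa overlaps Brd2 on the opposite strand over 3094 bases and Ciita overlaps Dexi over 25888 bases, so reads of these pairs may have been mixed, and H2-DMb1 has a near-identical neighbour, H2-DMb2, with which its reads may have been split.

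CIITA acts at the promoters of the class II chains, and those of H2-Aa and H2-Eb1 are printed for that reason, as the 250 bases before the RefSeq start (GRCm38.p6). Promoters were searched for 4 of the 8 genes, H2-Aa, H2-Eb1, H2-DMb1 and H2-DMa. Capitals mark the Y box core CCAAT or its reverse complement ATTGG, the cyclic AMP response element TGACGTCA, and a stretch shared by H2-Eb1 and H2-DMb1. The H2-Aa promoter (chr17:34287824-34288073) is given on the minus strand, and the H2-Eb1 promoter (chr17:34305617-34305866) on the plus strand. For H2-DMb1 only 30 bases with the shared stretch (chr17:34153091-34153120, plus strand) are given, and there the capitals also take in a match to the X box core CCTNGNNAC. These bases precede the RefSeq start but lie inside the GENCODE gene, whose start is further upstream.
H2-Aa: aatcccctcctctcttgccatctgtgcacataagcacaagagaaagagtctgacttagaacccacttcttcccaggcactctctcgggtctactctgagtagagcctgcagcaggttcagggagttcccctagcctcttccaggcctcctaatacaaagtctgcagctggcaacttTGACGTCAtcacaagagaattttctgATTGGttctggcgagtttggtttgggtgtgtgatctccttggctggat
H2-Eb1: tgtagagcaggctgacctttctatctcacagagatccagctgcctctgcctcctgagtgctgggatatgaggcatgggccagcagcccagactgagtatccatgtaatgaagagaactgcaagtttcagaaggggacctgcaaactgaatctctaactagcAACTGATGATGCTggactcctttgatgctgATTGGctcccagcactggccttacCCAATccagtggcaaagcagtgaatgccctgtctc
H2-DMb1: taCCTAGTAACTGATGATGCTaggctgatt

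The stretch AACTGATGATGCT stood 89 to 77 bases before the start of H2-Eb1 and 92 to 80 bases before that of H2-DMb1. It occurred in 2 of 32851 RefSeq promoters of 250 bases, those of these same genes. It was picked as the longest run of bases common to both, so its match in these 2 was fixed in advance. A Y box core lay 59 to 55 bases before the start of H2-Eb1, 61 to 57 bases before that of H2-DMb1 and 48 to 44 bases before that of H2-Aa, all as ATTGG, and H2-Eb1 had a further CCAAT 35 to 31 bases before its start. CCAAT on either strand was found in 33.8% of all promoters, so its presence alone is common. The match to CCTNGNNAC in H2-DMb1, at 98 to 90 bases and overlapping the shared stretch, had a counterpart in 13.5% of all promoters. TGACGTCA lay 74 to 67 bases before the start of H2-Aa and occurred in 1.55% of all promoters. Of the 2 RefSeq starts of H2-DMa, the first had none of these letters and the second had only an ATTGG 198 to 194 bases upstream. The STAT site TTCNNNGAA, planned for the search and found in 7.02% of all promoters, had no match in those searched here. Both TGACGTCA and the shared stretch were added to the search after the sequences had been read.

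Depth was even over the mice, with 26171887 to 30201517 reads on genes. Levels are given as CPM, the count of a gene relative to the size of its library, scaled by TMM (a trimmed mean of ratios between libraries), and the floor of detection was set at 3 counts, which stand for 0.0993 to 0.115 CPM. Fold changes come from edgeR's quasi-likelihood test of all 3 groups together, adjusted by Benjamini and Hochberg over 15196 genes, and a gene was called at an adjusted p-value under 0.05. Of the 8 genes, 6 had enough counts to be tested, while H2-DMb1 and Ciita did not. H2-Aa, H2-Eb1 and Cd86 reached the filter on low counts mainly through mice in which they were high, so the number of tested genes that moved is not read as evidence about the group. The rod marker Gnat1 stood at 11466 to 17288 CPM as a group mean, so a defining marker of the labelled tissue was abundant. TD139-treated mouse 1 had the highest level of its group for all 6 tested genes and the highest sum of 9 microglia markers (36.1 CPM against 16.7 and 14.6 CPM).

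In naïve retinas the class II genes were very unequal. Per length, as RPKM, the CPM divided by the transcript length in kilobases, H2-Ab1 led with 8.95 ± 0.459 RPKM (SD, n = 3) and H2-DMa followed with 3.44 ± 0.458 RPKM. Cd74 stood at 0.483 ± 0.402 RPKM and H2-Eb1 at 0.105 ± 0.0335 RPKM. Cd86 was at 0.0537 RPKM, H2-Aa at 0.0436 RPKM, H2-DMb1 at 0.00912 RPKM and Ciita at 0.00407 RPKM. H2-Ab1 lay above H2-DMa in every naïve mouse. Cd74 ranged from 0.0780 to 0.882 RPKM and so overlapped H2-Eb1, and the 4 lowest genes rested on at most 7 counts in any naïve mouse, so their order is not resolved. The partner chains of I-A, which are needed together for a surface molecule, were thus far apart in these counts, with H2-Ab1 at 280 to 296 counts and H2-Aa at 0 to 3 counts per naïve mouse. The same gap, though narrower, remained in vehicle-treated mice, at 14.5 ± 2.16 RPKM for H2-Ab1 and 1.15 ± 0.742 RPKM for H2-Aa. Cd74 was then at 1.98 ± 1.44 RPKM and H2-DMa at 4.18 ± 0.665 RPKM. In TD139-treated mice H2-Ab1 was at 6.75 ± 2.13 RPKM, H2-DMa at 2.88 ± 0.474 RPKM, Cd74 at 0.611 ± 0.883 RPKM and H2-Aa at 0.197 ± 0.228 RPKM. Where along H2-Ab1 its reads fell cannot be seen in gene counts.

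**Figure D1:**
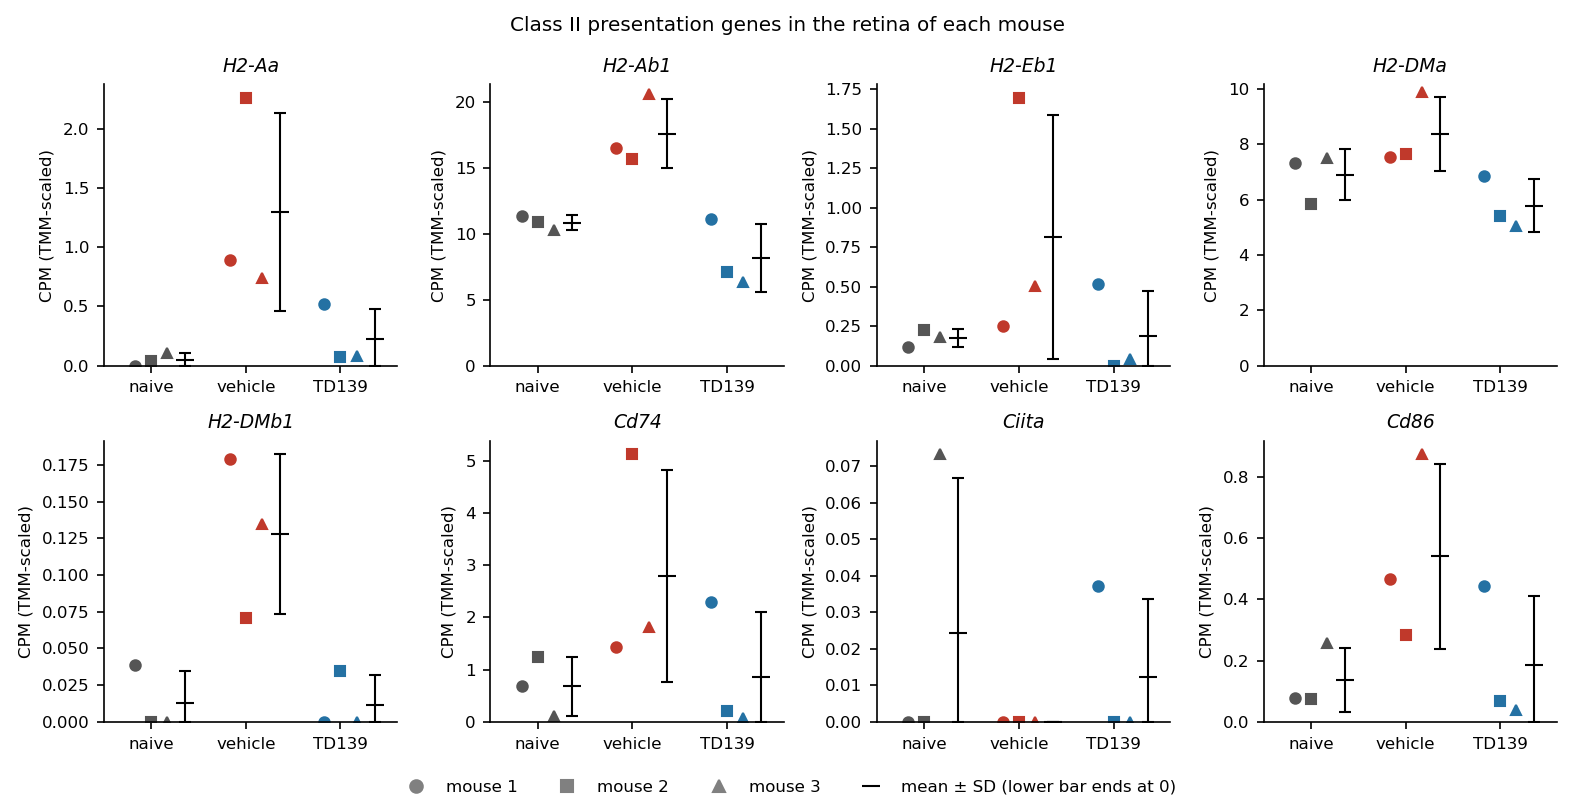
Level of each of the 8 genes in each mouse, in TMM-scaled CPM on axes that start at 0 and differ between panels, for naïve, vehicle-treated and TD139-treated mice (3 each), with the group mean and SD as a black bar. Vehicle-treated mice lie above naïve mice for every gene other than Ciita, and among TD139-treated mice, mouse 1 stands highest for all but H2-DMb1.

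Exposure to light with vehicle was compared with the naïve state first. H2-Aa, the I-A alpha chain, was the class II gene called higher by edgeR with all mice. It passed the low-count filter mainly through mice in which it was high, so its calls, here and below, are given as description. It had 0, 1 and 3 counts in naïve mice 1 to 3 and 25, 64 and 22 counts in vehicle-treated mice 1 to 3. No vehicle-treated mouse came near the naïve range, and mouse 2 was the highest. The means were 0.0492 ± 0.0559 CPM in naïve and 1.30 ± 0.837 CPM in vehicle-treated mice (SD, n = 3). The edgeR log2 fold change was 4.58 ± 0.96 (SE, 95% interval 2.48 to 6.68, adjusted p = 0.0246). Since all naïve mice were at or under the floor, this value depends on the prior count, and the ratio of the pooled counts, 111 against 4 and scaled for depth, was 25.8 with an exact 95% interval of 9.78 to 96.2 that covers counting error only. The call was lost when any naïve mouse, or vehicle-treated mouse 1 or 3, was left out, with log2 fold changes of 3.91 to 5.79 over the 9 mice left out in turn. Among all genes tested, 4.91% were called higher and 2.89% lower in this comparison.

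H2-Ab1, the I-A beta chain, had 296, 289 and 280 counts in naïve mice and 462, 443 and 612 counts in vehicle-treated mice. The groups were well apart and the naïve mice close together. Its log2 fold change of 0.70 ± 0.21 (95% interval 0.24 to 1.15) missed the threshold in edgeR (adjusted p = 0.0610). H2-Ab1 was called with DESeq2 (adjusted p = 0.0146), with only the 2 groups compared in edgeR (adjusted p = 0.0223) and without TD139-treated mouse 1 in edgeR (adjusted p = 0.0138). It was not called in the other settings, among them the offset for length and GC content (0.48, edgeR adjusted p = 0.0836) and the fit without vehicle-treated mouse 3 (0.57, edgeR adjusted p = 0.178).

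H2-Eb1, the I-E beta chain, had 3, 6 and 5 counts in naïve mice and 7, 48 and 15 counts in vehicle-treated mice. Vehicle-treated mouse 2 carried most of that group's counts, while mouse 1 was just above the naïve range. Its log2 fold change was 2.19 ± 1.02 (edgeR adjusted p = 0.194), and 1.09 without that mouse (adjusted p = 0.539). Cd74, the invariant chain, was similar, with 18, 33 and 3 counts in naïve mice against 40, 145 and 54 with vehicle, and mouse 2 was again far above the others. The log2 fold change of Cd74 was 2.03 ± 1.14 (edgeR adjusted p = 0.286), and 1.25 to 2.80 with each mouse left out, lowest without vehicle-treated mouse 2.

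Cd86, the ligand that gives T cells their second signal, had 2, 2 and 7 counts in naïve mice against 13, 8 and 26 with vehicle. Here mouse 3 was the highest vehicle-treated mouse and mouse 2 the lowest. Its log2 fold change was 1.95 ± 0.83 (edgeR adjusted p = 0.154), from 1.42 without vehicle-treated mouse 3 to 2.77 without naïve mouse 3. H2-DMa, the alpha chain of the peptide exchange factor, had 191, 155 and 205 counts in naïve mice against 211, 217 and 295 with vehicle, with a log2 fold change of 0.28 ± 0.19 (edgeR adjusted p = 0.370) that was 0.08 with the offset for length and GC content and 0.14 without vehicle-treated mouse 3. Brd2, which overlaps it, differed by a log2 fold change of -0.09 (edgeR adjusted p = 0.569).

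H2-DMb1, the DM beta chain, had 1, 0 and 0 counts in naïve mice and 5, 2 and 4 counts in vehicle-treated mice. The ratio of the pooled counts, 11 against 1, was 10.2 with an exact 95% interval of 1.48 to 439. Ciita, the switch of the class II genes, had 0, 0 and 2 counts in naïve mice and 0 counts in each vehicle-treated mouse, so its level was at or under the floor in both groups and no fold is given. A rise of H2-Aa was thus read at a depth at which Ciita itself was not detectable. Over the 8 genes, every vehicle-treated mouse lay above every naïve mouse for 7, including H2-DMb1 on few counts. Among all genes tested, 16.7% were apart in that direction.

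TD139-treated mice were then compared with vehicle-treated mice, both exposed to light. The chains of I-A fell. H2-Ab1 had 300, 204 and 160 counts in TD139-treated mice 1 to 3, all under the 443 to 612 counts of vehicle-treated mice, and its mean went from 17.6 ± 2.62 to 8.18 ± 2.58 CPM (SD, n = 3). The log2 fold change of H2-Ab1 was -1.10 ± 0.21 (95% interval -1.56 to -0.64, edgeR adjusted p = 0.00623). It was called with each of the 9 mice left out, at -1.39 to -0.95, but an offset for transcript length and GC content brought it to -0.53 (edgeR adjusted p = 0.0521). The libraries of these groups also stood apart in the share of reads on no counted feature. It was 21.3, 22.8 and 22.6% with TD139 against 19.4, 16.5 and 18.5% with vehicle (19.1 to 19.9% in naïve mice). Ambiguous reads were at 0.303 to 0.363% with TD139 against 0.417 to 0.471% with vehicle. The part of these shares in the changes with TD139 was not tested.

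H2-Aa had 14, 2 and 2 counts in TD139-treated mice, below every vehicle-treated mouse. Most of these counts came from mouse 1, without which the log2 fold change was -4.05 (edgeR adjusted p = 0.00503). With all mice it was -2.52 ± 0.77 (95% interval -4.21 to -0.82, edgeR adjusted p = 0.0287), and the ratio of the pooled counts, 18 against 111, was 0.172 (exact 95% interval 0.0985 to 0.285, counting error only). The call of H2-Aa was lost without vehicle-treated mouse 2, which was its highest mouse (log2 fold change -1.85, edgeR adjusted p = 0.107), and without TD139-treated mouse 2 or 3 (edgeR adjusted p = 0.120 and 0.112). It was also lost with the replicate number as a block, alone or with the offset for length and GC content. Among all genes tested, 16.2% were called lower and 17.2% higher in this comparison, so a call was common here.

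The other members did not pass the test in edgeR with TMM scaling and all mice. H2-DMa had 185, 156 and 128 counts in TD139-treated mice, under the 211 to 295 counts of the vehicle group, with a log2 fold change of -0.53 ± 0.19 (edgeR adjusted p = 0.0537) that the offset for length and GC content moved to -0.10. H2-DMa was called with DESeq2 (-0.53, adjusted p = 0.0342), and by edgeR with library size scaling (-0.62, adjusted p = 0.0426) and with run 1 alone (-0.71, adjusted p = 0.0241). H2-Eb1 had 14, 0 and 1 counts, Cd74 had 62, 6 and 2 counts, and Cd86 had 12, 2 and 1 counts in TD139-treated mice 1 to 3. For these 3 genes mouse 1 lay within the range of the vehicle-treated mice, while mice 2 and 3 lay below it. The log2 fold change was -2.11 ± 1.01 for H2-Eb1 (edgeR adjusted p = 0.126). That of Cd74 was -1.69 ± 1.12 (edgeR adjusted p = 0.268). That of Cd86 was -1.53 ± 0.79 (edgeR adjusted p = 0.151). Without TD139-treated mouse 1, all 6 tested genes were called lower by edgeR, with log2 fold changes of -5.14 for H2-Eb1 (adjusted p = 0.00844), -4.21 for Cd74 (adjusted p = 0.0138) and -3.19 for Cd86 (adjusted p = 0.0177). In that fit 19.0% of all genes tested were called lower. Without vehicle-treated mouse 2 the changes of H2-Eb1 and Cd74 shrank to -1.01 and -0.91 (edgeR adjusted p = 0.486 and 0.578), and without vehicle-treated mouse 3 that of Cd86 shrank to -0.996 (edgeR adjusted p = 0.442).

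H2-DMb1 had 0, 1 and 0 counts in TD139-treated mice, and the ratio of its pooled counts to those of vehicle-treated mice, 1 against 11, was 0.0965 (exact 95% interval 0.00224 to 0.664). Ciita had 1, 0 and 0 counts and stayed at or under the floor. Every TD139-treated mouse lay under every vehicle-treated mouse for 4 of the 8 genes, H2-Aa, H2-Ab1, H2-DMa and, on few counts, H2-DMb1. Among all genes tested, 25.4% were apart in that direction.

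**Figure D2:**
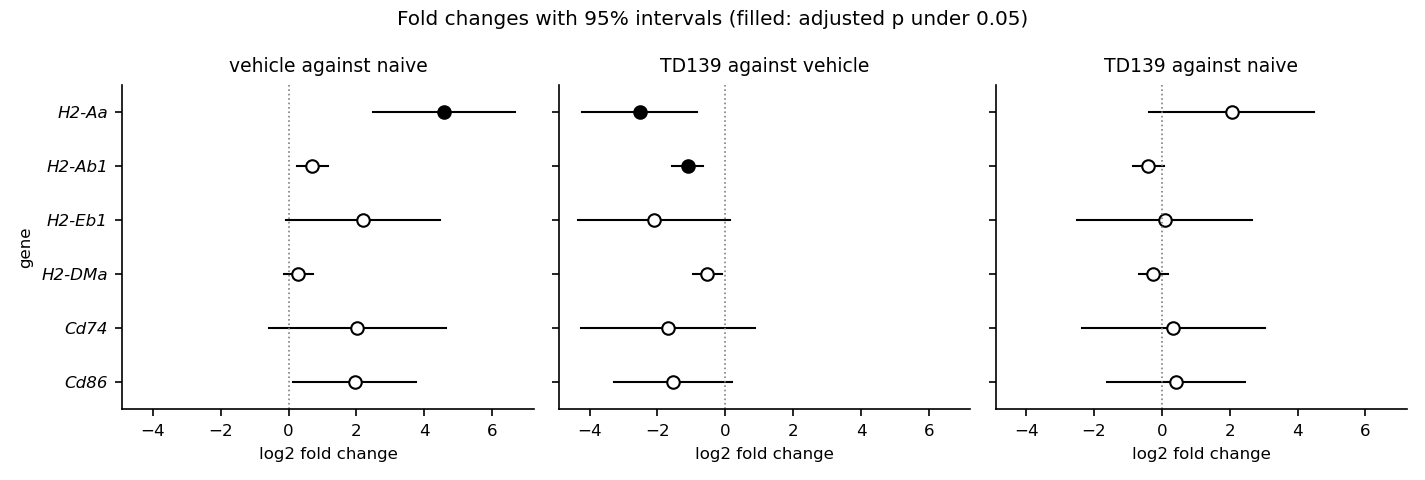
Log2 fold changes from edgeR with 95% intervals for the 6 tested genes in the 3 comparisons, with filled points for an adjusted p-value under 0.05. H2-Aa is filled in the comparison of vehicle with naïve, H2-Aa and H2-Ab1 in that of TD139 with vehicle, and no gene in that of TD139 with naïve. The intervals of H2-Ab1 and H2-DMa are the narrowest, and those of H2-Aa, H2-Eb1, Cd74 and Cd86 span several log2 units.

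TD139-treated and naïve mice, which share neither light nor injection, overlapped for every tested gene, and edgeR called 0 of the 6, with 0 also under 0.05 before adjustment. DESeq2 also called 0, and gave an adjusted p-value only to H2-Ab1 and H2-DMa. Both of these groups also enter the comparisons with vehicle. H2-Ab1 stood at 10.8 ± 0.556 CPM in naïve mice and 8.18 ± 2.58 CPM with TD139, which gave a log2 fold change of -0.41 ± 0.21 (edgeR adjusted p = 0.217). Without TD139-treated mouse 1, H2-Ab1 was called lower than in naïve mice at -0.68 (edgeR adjusted p = 0.0382), while the value was -0.24 without TD139-treated mouse 3 and -0.05 with the offset for length and GC content (edgeR adjusted p = 0.538 and 0.921). H2-Aa was at 18 pooled counts against 4, a ratio of 4.43 (exact 95% interval 1.46 to 18.0, counting error only), which mouse 1 carried with 14 counts. Its edgeR log2 fold change was 2.06 ± 1.11 (adjusted p = 0.238), and 0.54 without mouse 1 (adjusted p = 0.779). For H2-DMa, the log2 fold change was -0.25 ± 0.20, and for H2-Eb1, Cd74 and Cd86 it was 0.08 ± 1.17, 0.34 ± 1.17 and 0.42 ± 0.93, where errors of this size leave changes of several fold undecided. Among all genes tested, 2.72% were called higher and 2.38% lower, while 15.3% and 16.8% did not overlap.

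Genes that work beside class II were read from 7 lists with 43 genes, of which 42 were in the tables and 30 had enough counts. In vehicle-treated against naïve mice 8 were called higher and 1 lower, with a median log2 fold change of 0.25. The shares over all genes tested were 4.91% higher and 2.89% lower. In TD139-treated against vehicle-treated mice 5 were called higher and 14 lower, with a median of -0.45. Here the shares over all genes tested were 17.2% higher and 16.2% lower, so the 5 of 30 called higher are near that share. These comparisons share the vehicle-treated mice. The first count fell to 1, 0 and 2 calls without naïve mouse 1, 2 or 3, and to 4 and 1 calls when vehicle-treated mouse 1 or 3 was left out. Calls over all genes fell in the same fits, from 1185 to 91, 1 and 217, and to 249 and 84. Leaving out TD139-treated mouse 2 or 3 brought the second count to 13 calls, while those over all genes went from 5072 to 1626 and 1917.

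The remaining class II chains were barely detected. None of the 5 found in the tables had enough counts for a test. The alpha chain of I-E, listed under its pseudogene symbol H2-Ea-ps, had 0, 6 and 5 counts in naïve mice, 3, 10 and 1 with vehicle and 0 in each TD139-treated mouse. H2-DMb2, the second DM beta gene, had 0, 0 and 9 counts in vehicle-treated mice and at most 3 in any other mouse. H2-Ob, the beta chain of the DM inhibitor DO, reached at most 5 counts, H2-Oa, its alpha chain, at most 2, and H2-Eb2 at most 2. The highest counts of H2-Ea-ps and H2-Eb1 fell on the same animal, vehicle-treated mouse 2.

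The promoter factors on which CIITA docks were present throughout, in contrast to Ciita. All 7 were tested, and group means of the 3 RFX subunits lay between 19.4 and 41.2 CPM. None was called by edgeR with all mice or by DESeq2 in vehicle-treated against naïve mice, while the offset for length and GC content gave a call of Nfyc, a further Y box subunit, at -0.38 (edgeR adjusted p = 0.0282). With TD139 against vehicle, Rfx5, the DNA-binding RFX subunit, rose from 28.6 to 41.2 CPM (log2 fold change 0.53 ± 0.12, edgeR adjusted p = 0.00949). Nfya, a subunit of the Y box factor, rose from 36.4 to 54.1 CPM and Creb1, which binds cyclic AMP response elements, from 56.8 to 92.9 CPM, with log2 fold changes of 0.57 and 0.71. Rfxap, another RFX subunit, fell by 0.36 on the log2 scale. Rfx5, Nfya and Creb1 thus moved opposite to H2-Aa and H2-Ab1 in this comparison, in which 17.2% of all genes tested were called higher. With the offset for length and GC content Rfx5 and Nfya were called higher, and Creb1 and Rfxap were no longer called.

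On the interferon gamma axis, 7 of 8 genes were tested, of which 2 were called higher with vehicle against naïve and 3 lower with TD139 against vehicle. Of all genes tested, 4.91% and 16.2% were called in these directions. Ifng, the cytokine itself, was at 0 counts in every mouse, which at this depth is an upper limit of 0.0993 to 0.115 CPM. Irf1, which acts on the interferon-responsive promoter of Ciita, rose from 7.09 to 18.3 CPM and fell to 6.72 CPM. Irf8, an interferon regulatory factor of myeloid cells that microglia also express, rose from 1.39 to 8.34 CPM and fell to 2.42 CPM. Their log2 fold changes were 1.37 ± 0.31 and 2.58 ± 0.46 with vehicle against naïve (edgeR adjusted p = 0.0297 and 0.0189), and -1.45 ± 0.31 and -1.79 ± 0.44 with TD139 against vehicle (edgeR adjusted p = 0.00903 and 0.0140). Ifngr2, a receptor chain, was called only in the latter comparison, at -0.36. Ifngr1, Jak1, Jak2 and Socs1 were called in none by edgeR with all mice, and Jak2 was called higher with TD139 against vehicle without TD139-treated mouse 1 (0.37, adjusted p = 0.0411). Irf1 and Irf8 thus followed the direction of H2-Aa in both comparisons, which share the vehicle-treated mice, while Ciita stayed at or under the floor.

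Of 7 genes of endosomal processing, edgeR called 4, the cathepsins Ctss, Ctsl, Ctsb and Ctsd, higher in vehicle-treated mice, and the same 4 with Ifi30 and Lgmn lower with TD139. The shares of all genes tested were 4.91% higher with vehicle against naïve and 16.2% lower with TD139 against vehicle. Ctss, the cathepsin known for the last cut of the invariant chain, rose from 10.03 to 30.9 CPM and fell to 9.63 CPM, with log2 fold changes of 1.62 ± 0.28 (edgeR adjusted p = 0.0184) and -1.68 ± 0.28 (edgeR adjusted p = 0.00575). Ctsl rose from 178 to 461 CPM and fell to 151 CPM, Ctsb rose from 455 to 861 CPM and fell to 473 CPM, and Ctsd rose from 494 to 1368 CPM and fell to 480 CPM. Ifi30, the thiol reductase of antigen processing, and Lgmn, the asparagine protease legumain, were called by edgeR with all mice in TD139 against vehicle alone, at log2 fold changes of -1.13 and -0.47. DESeq2 also called Ifi30 with vehicle against naïve (0.76, adjusted p = 0.0136), as did edgeR without TD139-treated mouse 1 (0.77, adjusted p = 0.0143), which called it lower with TD139 against naïve too (-0.68, adjusted p = 0.0489). The call of Lgmn was lost with the offset for length and GC content, at -0.09 (edgeR adjusted p = 0.558). Sppl2a, which clears the last membrane stub of the invariant chain, had log2 fold changes of 0.32 with vehicle against naïve, 0.07 with TD139 against vehicle and 0.38 with TD139 against naïve, and edgeR called none of them with all mice. DESeq2 called the first and the last (adjusted p = 0.0416 and 0.0101), edgeR with library size scaling called the first, and with the offset for length and GC content edgeR called Sppl2a lower with TD139 against vehicle. Per length, Ctsb, Ctsd, Ctsl, Lgmn and Ifi30 lay above H2-Ab1 in the mean of every group. Ctss was at 7.40 ± 1.46 RPKM in naïve mice and so close to the 8.95 ± 0.459 RPKM of H2-Ab1. These enzymes serve all lysosomes and not only class II.

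Of the ubiquitin ligases that remove class II from the surface, both rose with TD139 against vehicle, as did 17.2% of all genes tested. March1, which is known to act on class II and CD86, fell from 42.9 CPM in naïve to 28.9 CPM in vehicle-treated mice (log2 fold change -0.57 ± 0.13, edgeR adjusted p = 0.0298) and rose to 50.1 CPM with TD139 (0.79 ± 0.13, edgeR adjusted p = 0.00568). March8, its close relative, was at 68.6 CPM in naïve and 58.8 CPM in vehicle-treated mice without a call, and rose to 79.4 CPM with TD139 at a log2 fold change of 0.43 (edgeR adjusted p = 0.0121). March1 and March8 were also called higher with TD139 under the offset for length and GC content, with which March8 was also called lower with vehicle against naïve (-0.27, edgeR adjusted p = 0.0499). In vehicle-treated against naïve mice March1 was not called when any 1 of these 6 mice was left out, at log2 fold changes of -0.63 to -0.48.

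Among costimulatory genes, 3 of 8 had enough counts, and Icosl, the ligand of ICOS, was the member called. It rose from 1.96 to 4.58 CPM and fell to 1.81 CPM, with log2 fold changes of 1.22 ± 0.28 (edgeR adjusted p = 0.0284) and -1.34 ± 0.28 (edgeR adjusted p = 0.00730). Cd40, the receptor for T cell help, and Cd274, the inhibitory ligand PD-L1, were not called by edgeR with all mice. Cd274 rose with vehicle in DESeq2 (log2 fold change 1.17, adjusted p = 0.0353), and fell with TD139 against vehicle in edgeR without TD139-treated mouse 1 (-1.16, adjusted p = 0.0449). Cd80, the sister of CD86, had at most 5 counts in any mouse, Ctla4 at most 1 and Cd40lg 0. Partners of surface CD74 were also read, since the invariant chain doubles as a receptor for the cytokine MIF. Cd44, its signalling partner, rose from 22.2 to 85.9 CPM and fell to 29.6 CPM, with log2 fold changes of 1.95 ± 0.35 (edgeR adjusted p = 0.0235) and -1.54 ± 0.34 (edgeR adjusted p = 0.0131). Cxcr4, also of this list, was at 1.32 CPM in naïve, 3.98 CPM in vehicle-treated and 1.35 CPM in TD139-treated mice. It was not called by edgeR with all mice. DESeq2 called it higher with vehicle against naïve and lower with TD139 against vehicle. The ligands Mif and Ddt were not called with vehicle against naïve, and fell with TD139 against vehicle at log2 fold changes of -0.68 and -0.72 and against naïve at -0.50 and -0.53. All of these calls of Mif and Ddt were lost with the offset for length and GC content.

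**Figure D3:**
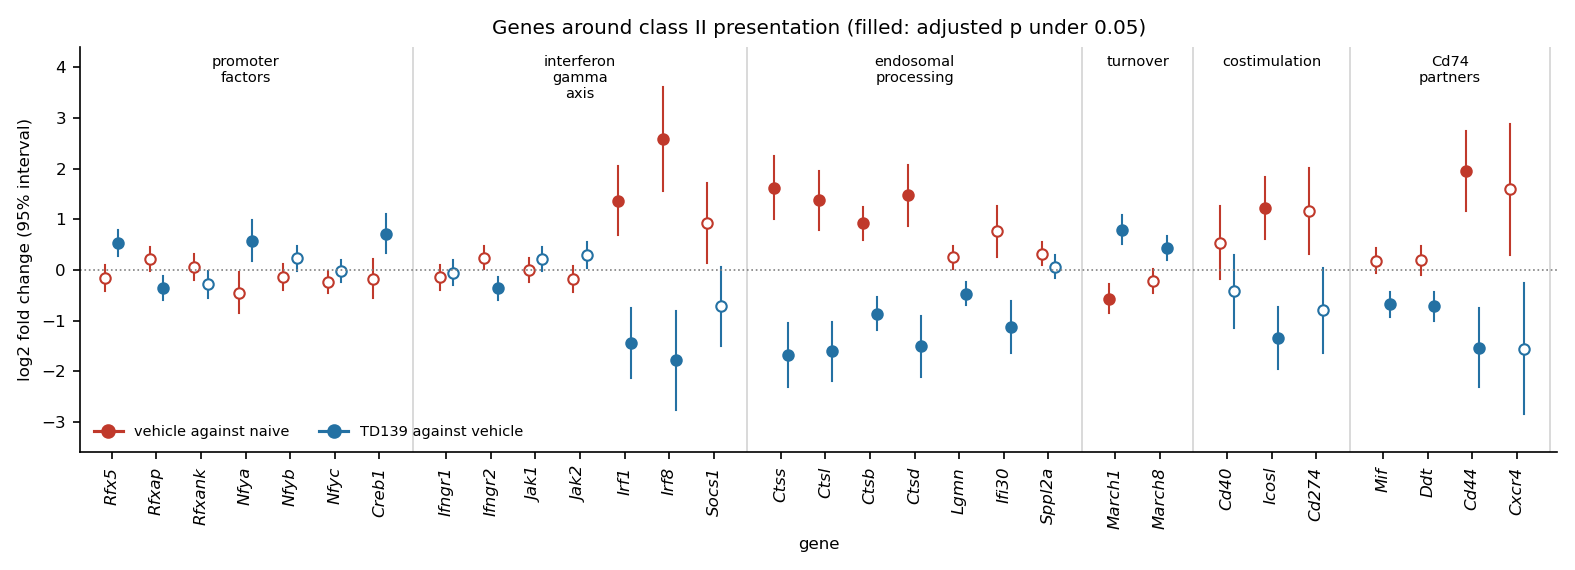
Log2 fold changes from edgeR with 95% intervals for the 30 tested genes around class II presentation, by role, with vehicle against naïve in red and TD139 against vehicle in blue, which share the vehicle-treated mice. Filled points have an adjusted p-value under 0.05. Irf1, Irf8, the cathepsins, Icosl and Cd44 are filled above 0 in red and below 0 in blue, March1 the reverse, and the promoter factors are open in red, from -0.45 for Nfya to 0.21 for Rfxap.

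Markers of cells that could carry class II were set beside these values. Microglia markers were present, and 5 of 9 (Cx3cr1, Tmem119, Csf1r, Aif1 and Fcrls) were called higher in vehicle-treated mice and lower with TD139. Over all genes tested, 4.91% were called higher with vehicle against naïve and 16.2% lower with TD139 against vehicle. Their summed level was 15.8 to 18.7 CPM in naïve, 58.2 to 68.4 CPM in vehicle-treated and 14.6 to 36.1 CPM in TD139-treated mice. Class II genes did not all keep step with this sum. H2-Ab1 stood at 57.0 to 68.8% of it in naïve, at 26.5 to 30.04% in vehicle-treated and at 30.8 to 43.2% in TD139-treated mice, so that naïve mice lay above both other groups without overlap. H2-DMa went likewise, from 36.9 to 41.8% of the sum in naïve to 13.0 to 14.5% in vehicle-treated mice, and stood at 19.0 to 34.6% with TD139. Since the sum itself rose with vehicle, any gene of steady CPM falls on this scale. H2-Ab1 and H2-DMa did not fall in CPM with vehicle, and the share of all genes that fall on this scale was not counted. H2-Aa ran the other way, at 0 to 0.611% in naïve and 1.08 to 3.83% in vehicle-treated mice, and its 0.417 to 1.44% with TD139 overlapped both. H2-Eb1, Cd74 and Cd86 overlapped between naïve and vehicle-treated mice on this scale, with Cd74 at 0.611 to 7.86% and 2.46 to 8.69%. Which cells these reads came from was not tested.

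Markers of most other carriers were sparse. Of 7 dendritic cell markers, Xcr1, Clec9a and Cd209a were at or under the floor in every mouse, and Itgax, which encodes CD11c, had 0, 3 and 5 counts in naïve, 18, 19 and 21 in vehicle-treated and 11, 3 and 0 in TD139-treated mice. Its log2 fold changes were 2.70 ± 0.90 with vehicle against naïve (edgeR adjusted p = 0.0848) and -1.94 ± 0.83 with TD139 against vehicle (edgeR adjusted p = 0.0911). Most of the summed level came from Flt3 and Zbtb46, and it was 5.53 to 7.18 CPM in naïve, 5.26 to 7.76 CPM in vehicle-treated and 5.98 to 7.07 CPM in TD139-treated mice. Ms4a1 and Cd79a of the B cell list and Cd3e, Cd3d and Cd3g of the T cell list were at or under the floor in every mouse, and the B cell sum was 1.06 to 2.05 CPM. The T cell sum, most of it from Lck, was 1.54 to 1.69 CPM in naïve, 2.37 to 4.23 CPM in vehicle-treated and 0.751 to 2.26 CPM in TD139-treated mice, with no gene of that list called. Among 7 monocyte and macrophage markers, Ms4a7 rose from 0, 0 and 2 counts in naïve mice to 43, 16 and 86 counts in vehicle-treated mice and fell to 14, 0 and 1 counts with TD139, and its order among vehicle-treated mice was that of Cd86 and not that of H2-Aa. Lyve1 made up most of the summed level of that list, at 10.6 to 18.9 CPM in any mouse, and the sum was 15.0 to 16.1 CPM in naïve, 14.3 to 20.03 CPM in vehicle-treated and 16.9 to 19.5 CPM in TD139-treated mice. Vehicle-treated mouse 2, the highest for H2-Aa, H2-Eb1 and Cd74, had 74 counts of Plac8, 15 of Cd163 and 18 of Mrc1, where no other mouse passed 10, 2 and 9 counts. Lyve1 rose with TD139 against vehicle at a log2 fold change of 0.43 (edgeR adjusted p = 0.0456).

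Pigment epithelium is a tissue that can come along when a retina is taken out, and its 4 markers (Rpe65, Best1, Rgr and Ttr) varied within groups. Rpe65 and Ttr were called lower with TD139 against vehicle, at log2 fold changes of -0.83 and -1.42 (edgeR adjusted p = 0.0408 and 0.0491), and none was called with vehicle against naïve. Their summed level was 173, 231 and 90.4 CPM in naïve mice 1 to 3, 248.9, 417 and 199 CPM in vehicle-treated mice, and 165, 113 and 114 CPM in TD139-treated mice. Cd74 had its highest mouse where this sum was highest in all 3 groups, naïve mouse 2, vehicle-treated mouse 2 and TD139-treated mouse 1, and its lowest naïve mouse was also that of the sum. The lowest mice of the light-exposed groups did not match. Cd74 was lowest in vehicle-treated mouse 1 and TD139-treated mouse 3, and the sum in vehicle-treated mouse 3 and TD139-treated mouse 2. H2-Eb1, on few counts, shared the highest mouse with the sum in all 3 groups and H2-Aa in both light-exposed groups, whereas H2-Ab1 and Cd86 were highest in vehicle-treated mouse 3, which had the lowest sum of its group. The part of this tissue in the class II counts was not tested. Endothelial markers summed to 163 to 243 CPM in naïve, 312 to 458 CPM in vehicle-treated and 212 to 443 CPM in TD139-treated mice, most of it from Kdr. None of these 4 markers was called by edgeR with vehicle against naïve, and Cldn5 was called lower with TD139 against vehicle. In vehicle-treated against naïve mice 3 of 4 photoreceptor markers were called lower and 3 of 5 Müller glia markers higher. The shares of all genes tested were 2.89% lower and 4.91% higher. With TD139 against vehicle, Pde6a and Pde6b of the photoreceptor markers were called higher and Vim of the Müller glia markers lower. In that comparison 17.2% of all genes tested were called higher and 16.2% lower.

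**Figure D4:**
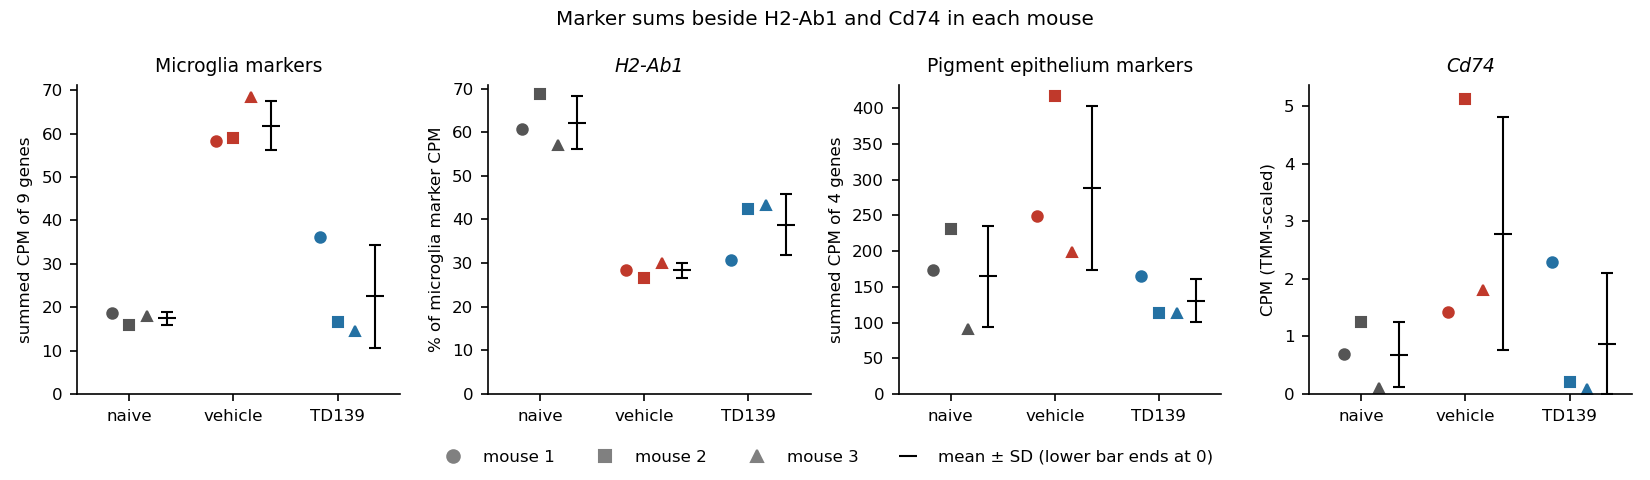
From left to right, summed CPM of 9 microglia markers, H2-Ab1 as a percentage of that sum, summed CPM of 4 pigment epithelium markers, and CPM of Cd74 in each mouse, with group mean and SD in black. H2-Ab1 takes 57.0 to 68.8% of the microglia sum in naïve and 26.5 to 30.04% in vehicle-treated mice, and vehicle-treated mouse 2 is the highest of all mice for both the pigment epithelium sum and Cd74.

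Genes whose levels over the 9 mice were most like those of class II were found by Pearson's r with the mean standardized log2 CPM of H2-Aa, H2-Ab1, H2-Eb1 and Cd74, among 13091 genes that averaged 50 counts or more. The 10 nearest were Ephb4 (r = 0.992), Cd99l2, Pcolce, Tmem37, Fkbp9, Idh2, Tcf19, Itpr3, Carhsp1 and Gpx8 (r = 0.976), and the value is a description over 9 mice that share 3 groups. Ephb4, a receptor for ephrin-B2, stood at 5.15, 5.84 and 4.80 CPM in naïve mice, 7.01, 10.3 and 8.67 CPM in vehicle-treated mice and 6.82, 4.21 and 4.19 CPM in TD139-treated mice. Pcolce, an enhancer of procollagen processing, stood at 7.26, 11.8 and 8.17 CPM, 17.7, 43.4 and 19.5 CPM, and 14.0, 4.73 and 4.90 CPM in the same order. All 10 genes were highest in vehicle-treated mouse 2, and TD139-treated mouse 1 was the highest of its group for each. Of the members, Cd74, H2-Eb1, H2-Aa and H2-Ab1 had r = 0.947, 0.939, 0.933 and 0.846 with this profile, of which they are part, and H2-DMa and Cd86 had r = 0.690 and 0.681.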

How the data were processed

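Retinal poly(A) RNA of 9 mice was sequenced on 2 flow cells. Unscaled read counts per gene symbol, made with BaseSpace RNA Express, were deposited by the authors as 1 table per mouse and run, and the submitters' processing notes name mm10. The annotation and strand setting used for counting are not given in the sources used here. The 2 runs of a mouse were summed, so the mouse is the replicate, in groups set by the sample labels. Reads on no counted feature (16.5 to 22.8%) and ambiguous reads (0.303 to 0.471%) entered neither library sizes nor tests.

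Counts were tested with edgeR 4.0.16 in R 4.3.3 (filterByExpr, TMM, robust quasi-likelihood F test, all 9 mice in 1 fit, Benjamini-Hochberg over 15196 genes). The SE is the log2 fold change divided by the square root of F. RPKM used the longest coding transcript of GENCODE M21. Exact intervals and floors cover counting error only. Likeness used log2(CPM + 0.5). The edgeR fit was tested on simulated data.

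The members and gene lists were chosen with earlier results of these data known. Named are all members, list genes called in any comparison (otherwise up to 2 with the highest counts), and the 10 most alike genes, and other list genes were named after their values were seen. Alternatives were DESeq2 1.42.0, RLE or library size scaling, no low-count filter, only the groups compared, the replicate number as a block, single runs, an offset (spline with 4 degrees of freedom on transcript length and GC content) and each mouse left out. For the lists around class II they were added after seeing the data. Some genes were left out of the lists and are not reported here, so counts and sums cover the genes that remain.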

Additional observations from a re-analysis of the deposited data

How the results depend on the processing

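At these depths, H2-Aa, H2-Eb1, Cd86, H2-DMb1 and Ciita rest on few counts, and their fold changes carry wide errors. The number of members called with vehicle against naïve (1) was 2 with DESeq2 and with only the 2 groups compared, 0 with run 1 or run 2 alone, where H2-Aa had too few counts for a test, and 0 to 2 with each mouse left out in turn. With TD139 against vehicle (2 called) it was 3 with DESeq2 and with library size scaling, 1 with run 2 alone and with the length and GC offset, and 1 to 6 with each mouse left out, and with TD139 against naïve (0 called) it was 0 to 1. Over all genes, 7.80% were called with vehicle against naïve, 15.9% with DESeq2, 9.99% with only the 2 groups compared and 0.00647 to 12.8% with a mouse left out. With TD139 against vehicle these shares were 33.4%, 38.6% with DESeq2, 32.8% with library size scaling, 32.4% with run 2 alone, 23.6% with the offset and up to 38.4% with a mouse left out (1626 to 5926 genes). H2-Aa with vehicle against naïve kept its call in the 8 other alternatives that tested it, at log2 fold changes of 4.42 to 4.71. Against naïve mice, TD139-treated mice changed sign with mice left out for H2-Eb1 (-2.95 to 0.68), with -0.13 without naïve mouse 1 and -2.95 without TD139-treated mouse 1, for Cd74 (-2.17 to 1.12), with -0.16 without naïve mouse 3 and -2.17 without TD139-treated mouse 1, and for Cd86 (-1.23 to 1.24), with -1.23 without TD139-treated mouse 1. The median of all genes was 0.09 with vehicle against naïve and -0.10 with TD139 against vehicle under library size scaling, and -0.09 and 0.07 with the length and GC offset. With that offset 0 genes in all were called with TD139 against naïve (2486 at an unadjusted p under 0.05), against 413 higher and 362 lower without it. The cause of these changes was not tested.

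Same-numbered mice correlated in their deviations from the group means at -0.26 to 0.28, so the numbers of the labels were not taken as pairs. With a replicate block, 1 member was called with TD139 against vehicle, as H2-Aa had an edgeR adjusted p of 0.0521, and 0 with the block and the offset together, which also turned H2-DMa with TD139 against naïve to 0.0055.

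Of the genes around class II, 9 were called with vehicle against naïve (0 to 10 with each mouse left out) and 19 with TD139 against vehicle (13 to 22). With TD139 against naïve, 2 were called, 1 with library size scaling, 5 with DESeq2, 0 with only the 2 groups compared, 0 with the replicate block, 0 with the offset, 0 with both, and 0 to 5 with each mouse left out.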
